A study of Mus musculus with 216 samples.

Results

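The clustered protocadherin genes lie in 3 neighbouring clusters, alpha, beta and gamma, on mouse chromosome 18. They were taken as all GENCODE vM21 genes whose symbol starts with Pcdha, Pcdhb or Pcdhg, which gave 58 genes: 14 alpha, 22 beta and 22 gamma. All H3K9me3 domains that overlapped a gene body of these genes by at least 1 bp were counted, and there were 28 such domains. The table lists 42890 domains on the placed chromosomes, and 43039 with unplaced sequences. The alpha cluster held 14 of them, the beta cluster 3 and the gamma cluster 11, and 0 domains touched genes of more than 1 cluster.

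The study followed the decay of heterochromatin in mouse embryonic stem cells of the line dTKO, whose genotype is given as Suv39h1fl/fl ; Suv39h2-/- ; Setdb1fl/fl in every sample. Suv39h1, Suv39h2 and Setdb1 encode methyltransferases that place methyl groups on lysine 9 of histone H3. To degrade tagged proteins, dTAG13 (0.5 µM) and auxin (100 µg/ml) were added to the medium, and cells were collected at 0, 1, 3, 12, 24 and 48 h, with 0 h as the baseline. The 216 samples are sequencing runs: H3K9me3, HP1b and their matched inputs have 54 each, from 3 biological repeats at every time point whose libraries were sequenced in 3 runs. The line, the genotype and the treatment label do not differ between samples. What was analysed is the authors' deposited table of H3K9me3 domains, in which each domain has 1 decay class for the entire time course: fast, intermediate, slow or residual. The labels do not say where the limits between classes lie, and the name residual is used below as the authors' word only. The table holds no value per sample or per time, so the depth behind a class is unknown, no class has a replicate error, and no difference described here could be tested.

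Clustered protocadherins are cell-surface proteins of the cadherin superfamily that give neurons individual identities, and each neuron transcribes its own small selection of them. In the alpha and gamma clusters, each gene has its own promoter and a long variable exon that encodes the extracellular cadherin repeats, the membrane span and the start of the cytoplasmic tail, and this exon is spliced to constant exons shared by the cluster. Beta genes consist of a single coding exon and have no constant exons. The C-type genes at the end of the alpha and gamma clusters differ from the rest, being transcribed in many neurons rather than by random choice. H3K9 methylation, DNA methylation and the looping factors CTCF and cohesin are known to act on these clusters in mouse neurons and stem cells.

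Of the 28 protocadherin domains, 13 were intermediate (46.4%), 8 were slow (28.6%) and 7 were residual (25%), and 0 were fast. Over all domains the shares were 71.5% intermediate, 20.5% slow, 4.57% residual and 3.49% fast. The exact 95% Clopper-Pearson interval of the protocadherin residual share ran from 10.7% to 44.9%, and a count of 0 fast domains allows a share of up to 12.3% by the same method. These intervals cover counting error only, and treat as independent 28 domains that lie side by side in 1 locus. The residual share of domains on gene bodies outside the clusters was 7.91%, and that of domains on exons of protein-coding genes outside the clusters was 18.6%. The last of these lies inside the protocadherin interval. By covered length, residual domains made up 14.7% of the protocadherin domains. The 3 longest domains were a slow one of 20.1 kb and intermediate ones of 12.6 and 7.5 kb.

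The class counts were uneven over the clusters, on small numbers. In alpha, 7 of 14 domains were intermediate, 5 slow and 2 residual. In beta, 2 of 3 were intermediate, 1 was slow and 0 were residual. In gamma, 4 of 11 were intermediate, 2 slow and 5 residual. The residual share was thus 45.5% in gamma (exact interval 16.7% to 76.6%) and 14.3% in alpha (1.78% to 42.8%), and these intervals overlap. Domains filled 21.8% of alpha gene bodies, 4.13% of beta gene bodies and 22.3% of gamma gene bodies. Over the whole span of each cluster, they filled 21.8% of alpha, 15.8% of beta and 22.3% of gamma. Alpha and gamma genes of a cluster end at the same constant exons, so their bodies nest and take in all the sequence between variable exons, while beta genes leave the sequence between them uncounted.

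**Figure D1:**
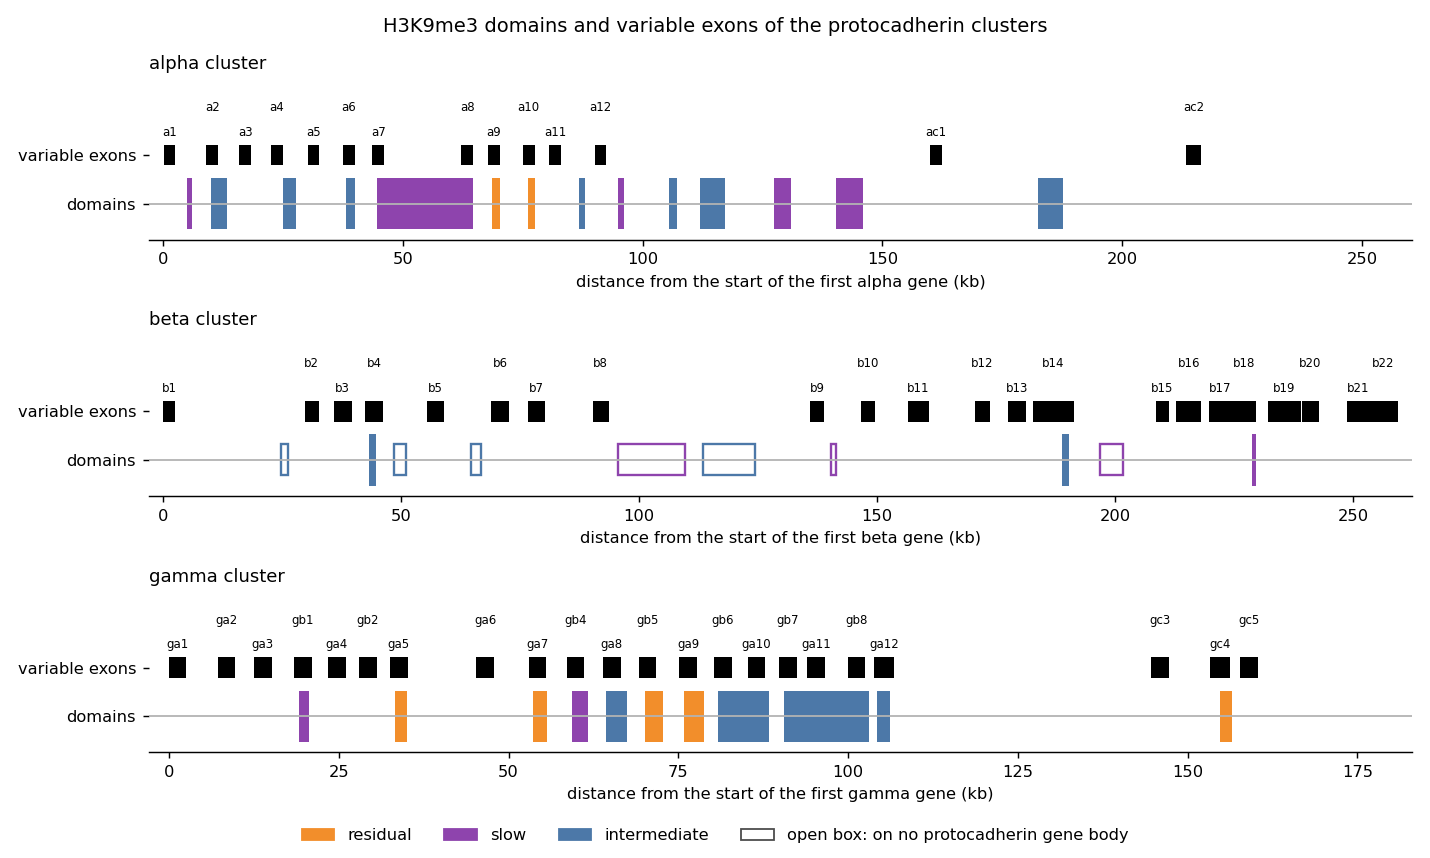
Variable exons (black) and H3K9me3 domains (coloured by decay class) along the alpha, beta and gamma clusters, by distance in kb from the start of the first gene of each cluster, with the RefSeq symbols shortened by their first 4 letters. Filled boxes are the 14 alpha, 3 beta and 11 gamma domains on gene bodies, and open boxes are the 7 domains between beta genes. All 7 residual domains stand under a variable exon.

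All 7 residual domains lay on a variable exon. Domains were split by whether they overlapped a variable exon, here the first exon of the transcript with the longest coding sequence, or the coding exon of a beta gene. Of the 19 domains on a variable exon, 7 were residual (36.8%, exact interval 16.3% to 61.6%), 4 were slow (21.1%) and 8 were intermediate (42.1%). Of the 9 domains off the variable exons, all of which lay in the alpha cluster, 0 were residual, 4 were slow and 5 were intermediate. A count of 0 of 9 allows a residual share of up to 33.6% by the same exact method. Among the 2946 domains on coding-gene exons outside the clusters, 18.6% were residual, 21.4% slow and 56.6% intermediate. The interval of the residual share on variable exons includes the 18.6% of the other coding-gene exons. The 10.8% of coding-gene exon domains without chromosomes 8 and 11 lies below this interval. The 10.6% of those on chromosome 18 outside the clusters (7 of 66) lies below it too. The exact interval of that share, 4.37% to 20.6%, overlaps the interval on variable exons. The latter treats as independent 19 domains that lie side by side in the locus, and this subset holds all 7 residual domains. An excess over these shares was not tested.

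The residual alpha domains lay on neighbouring genes. The variable exon of Pcdha9 carried a residual domain of 1.8 kb at 36998701 to 37000500 of chromosome 18 (mm10). The next exon downstream belongs to a gene that GENCODE vM21 labels Pcdha11 and RefSeq labels Pcdha10. It carried a residual domain of 1.5 kb at 37006201 to 37007700. GENCODE vM21 gives the symbol Pcdha11 to both this gene and the following one, so the first is called Pcdha10 below, and the following Pcdha11 exon overlapped 0 domains. Upstream of these residual exons, a slow domain of 20.1 kb, the longest of the 28, ran from 36974701 to 36994800. It began in the exon of Pcdha7, ended in that of Pcdha8 and also covered the unprocessed pseudogene Gm36858 between them. Pcdha2 had an intermediate domain of 3.3 kb at 36940201 to 36943500, and Pcdha6 had an intermediate domain of 1.8 kb at 36968401 to 36970200. The exons from Pcdha6 to Pcdha10 thus formed a run of 5 neighbouring exons that all overlapped a domain, in the order intermediate, slow, slow, residual, residual. The remaining alpha exons, from the first, Pcdha1, to the last, the C-type exon Pcdhac2, overlapped 0 domains: Pcdha1, Pcdha3, Pcdha4, Pcdha5, Pcdha11, Pcdha12, Pcdhac1 and Pcdhac2.

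In the gamma cluster, the genes are of type A, type B and type C, which differ in sequence. Residual domains marked 3 type A exons: Pcdhga5 (1.8 kb, 37695001 to 37696800), Pcdhga7 (2.1 kb, 37715401 to 37717500) and Pcdhga9 (3 kb, 37737601 to 37740600). They also marked the type B exon Pcdhgb5 (2.7 kb, 37731901 to 37734600) and the type C exon Pcdhgc4 (1.8 kb, 37816501 to 37818300). Pcdhgc4 was the only C-type exon of the locus to overlap a domain, of 5 C-type exons in all. The C-type exons on either side of it, Pcdhgc3 and Pcdhgc5, overlapped 0 domains, although the Pcdhgc4 domain ended 1212 bp before the Pcdhgc5 exon. Slow domains lay on the type B exons Pcdhgb1 (1.5 kb, 37680901 to 37682400) and Pcdhgb4 (2.4 kb, 37721101 to 37723500).

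Intermediate domains covered the end of the type A and B array. Pcdhga8 had a domain of 3 kb (37726201 to 37729200). Pcdhgb6 and Pcdhga10 shared a domain of 7.5 kb (37742701 to 37750200), and Pcdhgb7, Pcdhga11 and Pcdhgb8, which GENCODE lists as a polymorphic pseudogene, shared a domain of 12.6 kb (37752301 to 37764900). Pcdhga12, the last of the array, had a domain of 1.8 kb (37766101 to 37767900). From Pcdhga7 to Pcdhga12, all of 11 neighbouring exons overlapped a domain. Within that run residual, slow and intermediate domains alternated: Pcdhga7 residual, Pcdhgb4 slow, Pcdhga8 intermediate, Pcdhgb5 and Pcdhga9 residual, and the rest intermediate. At the other end of the array, Pcdhga1, Pcdhga2 and Pcdhga3 overlapped 0 domains, as did Pcdhga4, Pcdhgb2 and Pcdhga6 further on.

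Few beta exons carried a domain. Pcdhb4 was the only beta gene with a domain on its coding sequence, an intermediate domain of 1.5 kb (37308301 to 37309800) that covered 63.8% of it. The other beta domains lay in the 3′ untranslated part of the annotated exon and covered 0% of the coding sequence. These were an intermediate domain of 1.5 kb in Pcdhb14 (37453801 to 37455300), which began 6145 bp after the exon start, and a slow domain of 0.9 kb in Pcdhb18 (37493701 to 37494600), which began 4236 bp after it. The remaining 19 beta exons, from the first, Pcdhb1, to the last, Pcdhb22, overlapped 0 domains. Between the beta genes there were 7 further domains, 4 intermediate and 3 slow, of 1.2 to 14.1 kb, outside the gene bodies and hence outside the count.

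By subfamily, 6 of 12 alpha exons, 0 of 2 alpha C-type exons, 3 of 22 beta exons, 7 of 12 gamma A exons, 6 of 7 gamma B exons and 1 of 3 gamma C exons overlapped a domain. That is 23 of 58 variable exons (39.7%), each with 1 domain: 7 exons with a residual, 5 with a slow and 11 with an intermediate domain. Over all 21938 protein-coding genes, 12.3% had a domain on an exon. Protocadherin coding exons are long, so coding stretches of at least 2 kb within an exon were compared as well. This comparison was chosen after the data were seen. In it, 21 of 58 protocadherin exons (36.2%) and 16.6% of 691 other exons carried a domain on the coding part. A residual domain lay on 12.1% of the protocadherin exons and on 5.21% of the other long coding exons. Among only those exons that carried a domain, it was residual in 7 of 21 protocadherin exons and in 36 of 115 others. These 2 shares are close, so the per-exon rates differ along with how often a domain is present.

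Of 3 alpha and 3 gamma constant exons, which encode the shared cytoplasmic part of these proteins, 0 overlapped a domain. The share of 12.3% over all protein-coding genes counts a domain on any exon of a gene. It is not a share of single exons, so 0 of 6 exons cannot be judged against it.

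**Figure D2:**
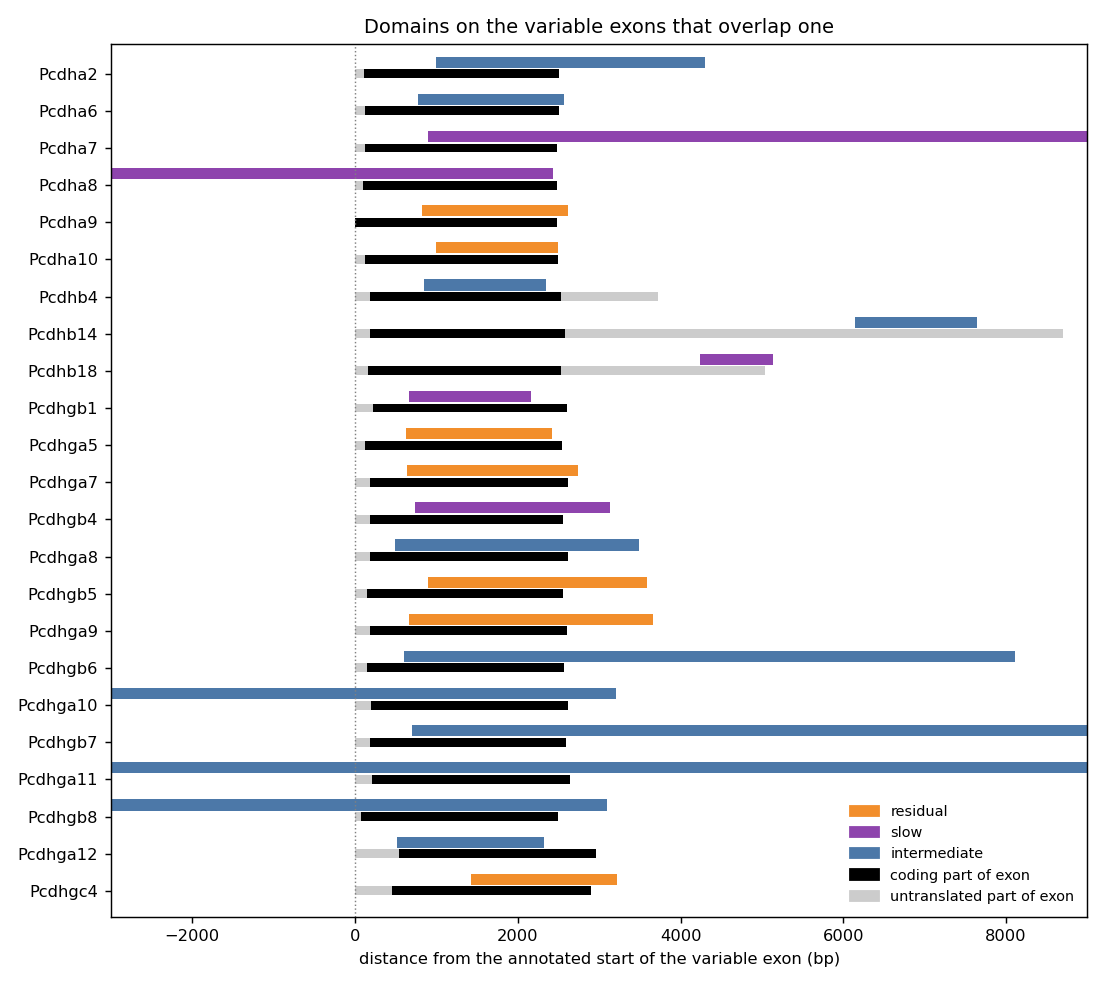
The 23 variable exons that overlap a domain, aligned at their annotated start (0 bp), with the coding part in black, the untranslated part in grey and the domain above each in the colour of its class, and with RefSeq symbols. Bars that reach the edge of the plot go on beyond it. Most domains begin inside the exon, and the residual ones begin 621 to 1422 bp after its start.

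Most domains on variable exons lay over the coding part and began downstream of the exon start. Of the 19 domains on variable exons, 0 began upstream of the first exon that they met. Leaving aside the 3′ domains of Pcdhb14 and Pcdhb18, 17 domains began 495 to 1422 bp after the annotated exon start, with a median of 732 bp. Counted from the start of the coding sequence, they began between 16 bp upstream and 968 bp downstream, with a median of 547 bp downstream. The 7 residual domains began 621 to 1422 bp after the exon start, the 3 slow ones 668 to 899 bp after it and the 7 intermediate ones 495 to 996 bp after it, so that the ranges of the 3 classes overlapped. The grid of the table is 300 bp, and differences smaller than that cannot be resolved.

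Of the 23 exons with a domain, 4 had their annotated start inside it: Pcdha8, Pcdhga10, Pcdhga11 and Pcdhgb8. All 4 lay in the 3 domains that held more than 1 variable exon, and each was a later exon of such a domain. None of these 3 domains was residual. The 1 kb before the exon start touched a domain in 5 exons, these 4 and Pcdhga12, where the domain of its upstream neighbours ended 679 bp before the exon. Of the 14 other domains that held 1 variable exon and lay on its coding part, 6 ended at least 300 bp, the grid step, past the end of the coding sequence. Their ends ranged from 640 bp before to 1795 bp after it, with a median within the grid step. Residual domains covered 60.5% to 81.1% of the coding part of their exon (median 69%, 7 exons). Slow domains covered 63% to 98% (median 72%, 4 exons) and intermediate ones 63% to 100% (median 79.7%, 10 exons).

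**Figure D3:**
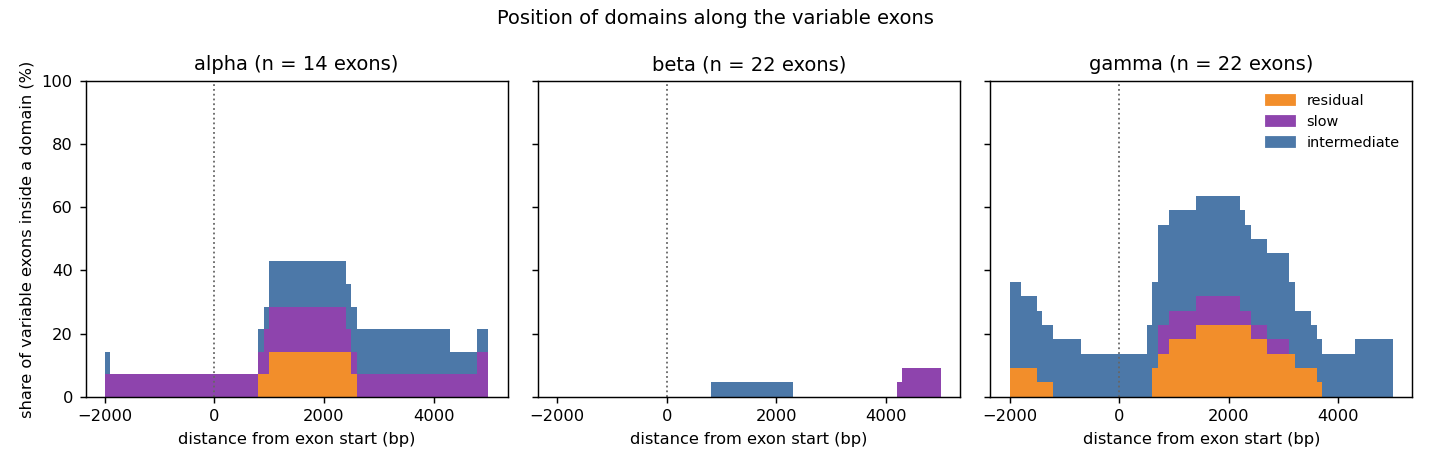
Share of variable exons inside a domain in bins of 100 bp, by distance from the exon start and coloured by class, for the 14 alpha, 22 beta and 22 gamma exons. At the exon start 4 of 58 exons are inside a domain, and 1400 to 2100 bp after it 21 of 58 are.

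Taking all 58 exons together, the number inside a domain was 4 in every bin from 700 bp before to 400 bp after the exon start, 3 of them intermediate and 1 slow. It reached 21 in the bins from 1400 to 2100 bp after the start, where 7 exons were in a residual, 4 in a slow and 10 in an intermediate domain. In gamma, 63.6% of exons were inside a domain there, in alpha 42.9% and in beta 4.55%.

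The rule left some close cases on either side. The smallest overlap of a counted domain with a gene body was 805 bp, for the domain in Pcdhb18, and the nearest uncounted domain was a slow one of 1.2 kb at 37405201 to 37406400, which lay 1291 bp from Pcdhb9. Among the exons, that of Pcdha4 ended 50 bp before an intermediate domain of 2.7 kb (36955201 to 36957900), which was therefore counted as off the variable exons. A retained-intron transcript of Pcdha4 in the annotation has a longer exon that does reach this domain. A residual domain of 1.8 kb on the processed pseudogene Gm6756 (36920401 to 36922200) lay 7983 bp before the first alpha gene, outside the clusters.

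**Figure D4:**
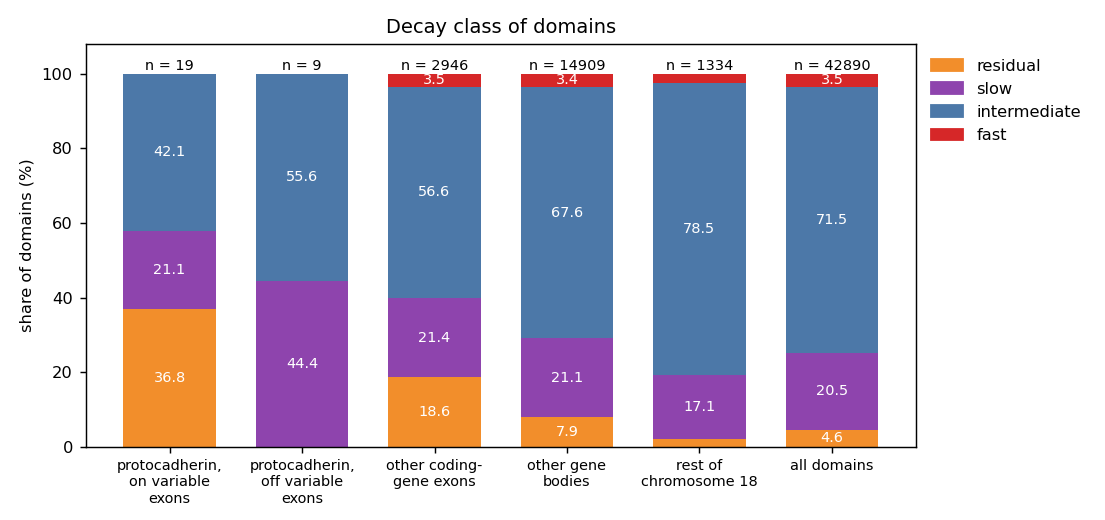
Share of domains in each decay class, as a percentage, for the 19 protocadherin domains on variable exons and the 9 off them, followed by domains on other coding-gene exons, on other gene bodies, on the rest of chromosome 18 and over the table, with the number of domains above each bar. Residual domains make up 36.8% of the first bar, 0% of the second and 18.6% of the third.

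The locus was dense in domains for its chromosome. From the first protocadherin start to the last end, 0.9117 Mb held 43 domains, or 47.2 per Mb, against 15 per Mb on chromosome 18 and 15.7 per Mb over the genome. Domains filled 20.5% of this span, against 5.95% of chromosome 18 and 6.28% of the genome. Domains went on upstream of the span, before the first alpha gene. Slow ones of 38.4 kb (36806401 to 36844800) and 28.8 kb (36869401 to 36898200) were longer than the longest protocadherin domain (20.1 kb). Intermediate ones of 6.6, 4.2, 5.4 and 2.7 kb lay there too. Downstream, the nearest domain lay 197527 bp past the gamma cluster. The density of the flanks was not computed, so the high density cannot be called particular to the span. Per cluster, the density was 54.4 domains per Mb over the 257.5 kb of alpha, 38.5 over the 259.5 kb of beta and 61.1 over the 180.1 kb of gamma. The 3 domains between alpha and beta and the 5 between beta and gamma included 0 residual ones.

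Chromosome 18 had 34 residual domains, and the 7 on protocadherin genes were 20.6% of them in 1.01% of the length of the chromosome. Residual domains numbered 7.68 per Mb in the span, against 0.375 per Mb on chromosome 18 and 0.719 per Mb over the genome. Outside the clusters, 2.02% of the 1334 domains of chromosome 18 were residual, and 10.6% of its 66 domains on coding-gene exons were (exact interval 4.37% to 20.6%). The largest number of residual domains in any window of the same length on chromosome 18 was 8, in a window that held these 7 and the one on Gm6756. Over the genome, chromosomes 8 and 11 held 1003 of 1960 residual domains. Without those chromosomes, 2.54% of all domains and 10.8% of domains on coding-gene exons were residual.

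**Figure D5:**
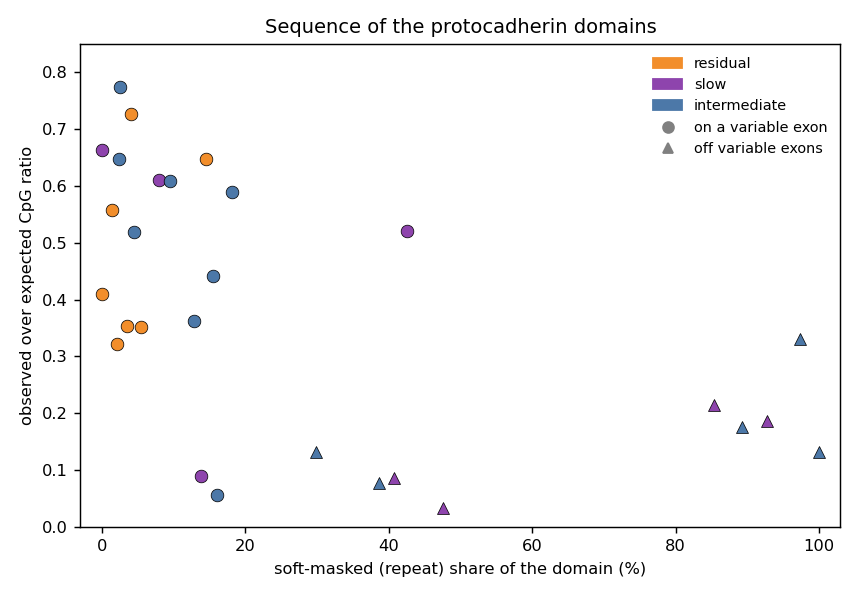
Observed over expected CpG ratio against the soft-masked (repeat) share in percent for each of the 28 protocadherin domains, coloured by class, with circles for domains on a variable exon and triangles for those off the variable exons. The 7 residual domains have a soft-masked share of 0% to 14.5%, and those off the variable exons have 29.8% to 100%.

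The domains on and off the variable exons had different sequence. On variable exons, the median GC content was 50.6%, the median observed over expected CpG ratio 0.521 and the median soft-masked share, which marks repeats, 5.5%. For domains on coding-gene exons outside the clusters these medians were 46.9%, 0.256 and 21%. Over all domains of the table the medians were 43%, 0.23 and 71.3%. Off the variable exons, the medians were 40.2%, 0.132 and 85.4%, and 5 of 9 domains were soft-masked over at least 80% of their length. Of these 5, 4 were wider than the median of the 28 domains (1.95 kb): intermediate ones of 5.1 kb stood at 37042201 to 37047300 and at 37112701 to 37117800, and slow ones of 3.6 and 5.7 kb at 37057501 to 37061100 and 37070401 to 37076100, all in introns of alpha genes. The last of these was the fourth longest of the 28 domains on gene bodies, after those of 20.1, 12.6 and 7.5 kb. The fifth, an intermediate domain of 1.8 kb at 37035601 to 37037400, was soft-masked over 100% of its length, and 1.36% of its 31-base stretches occurred once in the genome. The other off-exon domains were the intermediate one of 2.7 kb past the Pcdha4 exon, slow ones of 1.2 kb at 36935101 to 36936300 and 37025101 to 37026300 and an intermediate one of 1.2 kb at 37017001 to 37018200.

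The residual protocadherin domains resembled other residual domains on coding exons in GC content and had a higher median CpG ratio. Their median GC content was 50.7%, against 51.1% for the 547 residual domains on coding-gene exons outside the clusters. Their median CpG ratio was 0.41 (range 0.321 to 0.726), against 0.268 (quartiles 0.191 and 0.364) outside, and 4 of the 7 lay above that upper quartile. Their median soft-masked share was 3.5% against 10.8%, and their median width 1.8 kb against 3.3 kb. On variable exons, the median CpG ratio was 0.41 for the 7 residual domains, 0.554 for the 8 intermediate ones and 0.566 for the 4 slow ones. The residual values were spread widely: 0.726 on Pcdha9, 0.647 on Pcdhgb5 and 0.558 on Pcdha10, and 0.354 on Pcdhgc4, 0.352 on Pcdhga9 and 0.321 on Pcdhga7. Intermediate domains on variable exons spanned 0.056 to 0.775 and slow ones 0.0897 to 0.663, with the lowest of each in the 3′ parts of Pcdhb14 and Pcdhb18. The next lowest were 0.363 for the intermediate domain on Pcdhga8 and 0.521 for the slow one on Pcdha7 and Pcdha8. A difference in CpG between the classes was not tested.

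Exons with a domain had a higher median CpG ratio than those without in gamma but not in alpha. The median CpG ratio was 0.623 in the 14 gamma exons with a domain and 0.454 in the 8 without, while it was 0.651 in the 6 alpha exons with a domain and 0.685 in the 8 without. Beta exons had 0.36 with and 0.389 without. The ranges overlapped in each cluster: Pcdhgc3, which had no domain, reached 0.721, and Pcdhga7, which had a residual one, 0.394. Beta exons, the least often covered, had the lowest median of the 3 clusters (0.387, against 0.665 in alpha and 0.555 in gamma) and the lowest GC content (46%, against 53.2% and 52.5%). The beta values include the 3′ untranslated parts of these exons, while alpha and gamma variable exons end in coding sequence. The median exon length was 3714 bp in beta, 2490 bp in alpha and 2604 bp in gamma. The clusters are thus not compared on coding sequence alone.

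Protocadherin exons share stretches with each other, and reads from such stretches can be placed on more than 1 gene. Of the 31-base stretches of each exon, read at every base, 62.7% to 82.1% occurred once in the genome in the 12 alpha exons that are not C-type. The range was 76.5% to 90.9% in gamma B, 90.7% to 99.9% in gamma A, 77.5% to 100% in beta and 100% in each C-type exon. In alpha and gamma exons, 0% of stretches had copies outside the locus. In beta exons up to 5.08% did (Pcdhb22, where 5.55% had copies within the locus), followed by 3.88% in Pcdhb5 and 1.67% in Pcdhb14. The exons in slow domains shared most, with a median of 77.8% unique stretches, while those in residual domains had a median of 91.9% and those in intermediate domains 90.7%. Among the residual exons, Pcdhgc4 had 100% unique stretches, Pcdhga7 99.9%, Pcdhga5 97.9% and Pcdhga9 91.9%, while Pcdha9 had 82.1%, Pcdha10 79% and Pcdhgb5 77%. The residual class was thus given to exons with almost no shared sequence as well as to exons of which 17.9% to 23% is shared, and the part of shared sequence in the classes was not tested. Exons with a domain had a median of 87.8% unique stretches and those without one 91.4%.

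Related genes were described for comparison, in lists chosen by symbol. Of 12 non-clustered protocadherin genes, which lie singly in the genome, 5 had a domain on the gene body: Pcdh1, Pcdh7, Pcdh9, Pcdh11x and Pcdh15. Only Pcdh7 had a domain on a coding-gene exon, a residual one of 2.4 kb on chromosome 5 (57720001 to 57722400). Of 28 classical and other cadherin genes, 19 had a domain on the body and 8 on an exon. Cdh13, Cdh18 and Cdh12, all with long introns, had 183.5, 60.3 and 58.8 kb in domains. Only 1 of the 28, Cdh5, had a residual domain on an exon. The 3 cadherin genes with a residual domain on the body, Cdh5 among them, all lie on chromosome 8. Olfactory receptor genes lie in large clusters, as protocadherins do, and are chosen singly by neurons. They had a domain on the body in 80 of 1093 genes (7.32%). A residual domain lay on an exon in 5, all on chromosome 11, which with chromosome 8 held 1003 of all 1960 residual domains. The 3 with the most bases in domains were Olfr56, Olfr643 and Olfr164, with 14.1, 11.1 and 9.6 kb. Over all protein-coding genes, 23.4% had a domain on the body and 2.38% a residual domain on an exon, against 63.8% and 12.1% of the clustered protocadherin genes. The value of 63.8% counts the same domain for several nested genes.

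Of 8 genes listed as regulators of the clusters, 3 had a domain on the body, each on an exon as well (37.5%), against 23.4% and 12.3% of all protein-coding genes. Setdb1 had 2 residual domains, of 0.9 and 0.6 kb, on exons and an intermediate one of 1.5 kb. Smchd1, a chromosomal protein needed to keep these clusters silent in mouse tissues, had 2 intermediate domains of 1.2 and 1.5 kb. Wiz, a zinc finger protein whose loss alters clustered protocadherin expression in mouse brain, had 1 intermediate domain of 7.2 kb. Of the 31 genes listed within 500 kb of the clusters, only Pcdh1 had a domain (3.23%, against 23.4% of all protein-coding genes). It was an intermediate one of 2.1 kb (38204701 to 38206800) on chromosome 18. The list did not hold the pseudogene Gm6756, which had a residual domain. Nor did it hold a miRNA gene and a lincRNA gene of the flanks, which overlapped a slow and an intermediate domain. Other domains of the flanks, such as the slow one of 28.8 kb at 36869401 to 36898200, overlapped no annotated gene. The share of flanking genes with a domain is thus not a measure of domain density in the flanks.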

How the data were processed

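Per the labels' protocols, chromatin was crosslinked, sonicated and immunoprecipitated with Drosophila chromatin as a spike-in. Bowtie2 2.3.4.1, deepTools, bedtools and SAMtools 1.1 are named in the submitters' processing notes, as are the builds GRCm38, mm10, mm9 and dm6. How the authors called domains, placed reads with several matches, scaled signal or divided the classes was not given in the sources used here. In the authors' deposited table each domain has coordinates and a decay class in words, with no counts, score or sample column. Slow and residual domains carry the same display colour in it. The signal tracks, reads and HP1b samples were not analysed here.

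Domains were intersected with GENCODE vM21 and compared with the GRCm38.p6 sequence (0 domains past a chromosome end) in Python 3.11.15 with numpy 2.4.6, pandas 2.3.3, scipy 1.17.1 and numba 0.67.0. Coordinates are printed 1-based. A variable exon is the first exon of the transcript with the longest coding sequence. Copies of 31-base stretches were counted over both strands of the genome. They were read at every base of the protocadherin exons and domains. Overlap and copy counting were tested on simulated data. The readthrough genes Gm42416, Gm37013 and Gm37388, which span the locus, are not members. Named genes are all members with a domain on the variable exon, C-type and end members, and, per related list, all genes with a domain where there were 5 or fewer and otherwise the 3 with the most bases in domains. The other members without a domain, Cdh5 and the genes beside close cases were named after their values were seen. The members and lists were chosen with earlier results of these data known. A planned comparison of levels over time was not run, since the table has no value per time. Base sequences of the locus are not printed here. With 1 class per domain made over all samples, no test was possible.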

Additional observations from a re-analysis of the deposited data

How the results depend on the processing

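Of 136 values recomputed under other choices for 29 results, 121 stayed close to the main value (within 1.5 times for a count, the exact interval for a share or its ratio, or 1 SD over domains for a sequence feature) and 15 did not. The count of 7 residual protocadherin domains stayed at 7 under each overlap rule and was 6 with neighbouring domains of the same class joined. Some of the rules could not change this count. All 7 lie on exons of the members, and leaving out domains of 600 bp or shorter removed none, since the narrowest was 0.9 kb. The 121 values include such cases. By covered length, the residual share was 14.7% in place of 25%. Counting domains on exons of the members in place of gene bodies left 4 slow domains in place of 8, and in alpha 6 domains in place of 14, with 3 intermediate and 1 slow. Joining domains of the same class under 5 kb apart left 2 intermediate gamma domains in place of 4. Counting the whole span of each cluster, an alternative added after the data were seen, gave 10 beta domains in place of 3, with 6 intermediate and 4 slow. The residual share of protocadherin domains was 5.47 times that of all domains, 1.34 times that of domains on coding-gene exons, 10 times that of chromosome 18 and 9.86 times that of all domains without chromosomes 8 and 11. The ratio of 1.34 sets all 28 protocadherin domains, 9 of them off the variable exons, against domains on exons only. On variable exons the residual share was 36.8%, against 18.6% on coding-gene exons outside the clusters. Among coding exons of at least 2 kb with a domain, 7 of 21 protocadherin exons and 36 of 115 others had a residual one. With the midpoint of the domain required in the variable exon, 15 exons had a domain in place of 23, and 20 did with at least 50% of the exon covered. On coding exons, 1 non-clustered protocadherin gene in place of 5, 8 cadherin genes in place of 19 and 0 flanking genes in place of 1 had a domain. These changes follow from how each rule counts. No paired analysis was possible because the table has no sample values, and for the same reason no replicate could be left out. The depth behind each class is unknown.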
